A study of Mus musculus with 8 samples.

Results

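The genes described here encode 10 enzymes of glycolysis, from hexokinase to lactate dehydrogenase. They are Hk2, Gpi1, Pfkl, Aldoa, Tpi1, Gapdh, Pgk1, Pgam1, Pkm and Ldha. They were chosen by gene symbol, with earlier results of these data known, and make up 10 of 55471 gene identifiers in the deposited tables and 10 of the 13953 genes that could be tested. RNA was measured by sequencing in 8 libraries of mouse blastocysts at embryonic day 4.5, shortly before implantation. The groups were Isca2 -/- blastocysts (KO, n = 2), blastocysts homozygous for the glycine-to-serine form Isca2 G77S/G77S (G77S, n = 3) and wild-type blastocysts (WT, n = 3). Isca2 encodes a mitochondrial protein that helps to build iron-sulfur clusters, and by its title the study concerns iron and the pairing of ISCA2 with TET enzymes. Superovulated heterozygous females were mated with heterozygous males and the embryos were cultured. Hormone treatment and culture are taken to be shared by all groups, which for G77S is an inference. Full-length cDNA was amplified from these small samples before library preparation. The labels name no cross for the G77S embryos, and no embryo number, sex, litter or batch. They also do not say whether replicates stem from separate litters, and p-values therefore describe the spread among these 8 libraries, part of which may be technical.

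Glycolysis splits glucose into pyruvate in the cytosol. Hexokinase traps glucose in the cell, phosphofructokinase commits it to the pathway, aldolase and triose phosphate isomerase yield the 3-carbon sugars, and the lower steps return ATP and NADH. Lactate dehydrogenase regenerates the NAD that the pathway consumes. Early cleavage embryos rely mainly on pyruvate, and glucose uptake and glycolysis increase as the mouse blastocyst forms.

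The deletion label was checked first. Isca2 had 5.63 and 6.86 TPM (transcript abundance per length, with the same total in every library) in the KO libraries, against 120.7, 164.3 and 205.5 TPM in G77S and 138.3, 221.6 and 196.0 TPM in WT. The log2 fold change of KO over WT was -4.64 (SE 0.41, adjusted p = 0.0039), so Isca2 fell in KO. Without KO replicate 2 the adjusted p was 0.0889. Libraries held 10323965 to 23842619 expected counts. The mean fragment length implied by the tables was 181.4 to 185.1 bases in G77S and 242.7 to 291.1 bases in the other libraries, so genotype and any difference in preparation cannot be told apart for G77S. Summed Y-linked RNA was close to 0 in G77S replicate 1 and WT replicate 1 (0.070 and 0.335 CPM) and lay between 215 and 418 CPM in the other 6 libraries. Trophectoderm markers were present in all libraries. In WT, the primitive endoderm markers Gata4, Sox17 and Sox7 and the pluripotency markers Sox2 and Esrrb had 0 counts, while Dab2, Gata6, Nanog and Dppa5a were detected. Of the 10 cumulus and granulosa cell markers, 8 were at 0 in every library, and no blood marker exceeded 3.98 TPM.

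All 10 genes had counts in all 8 libraries, and all 10 passed the filter on low counts. Their summed level was 1458 and 931 TPM in the KO libraries, 2299, 1491 and 1402 TPM in the G77S libraries, and 1861, 1466 and 1322 TPM in the WT libraries. The groups overlapped. The means were 1194 ± 372 TPM in KO (SD, n = 2), 1731 ± 494 TPM in G77S and 1550 ± 279 TPM in WT (SD, n = 3 each). The 10 transcripts together took 0.0931% to 0.230% of all TPM.

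**Figure D1:**
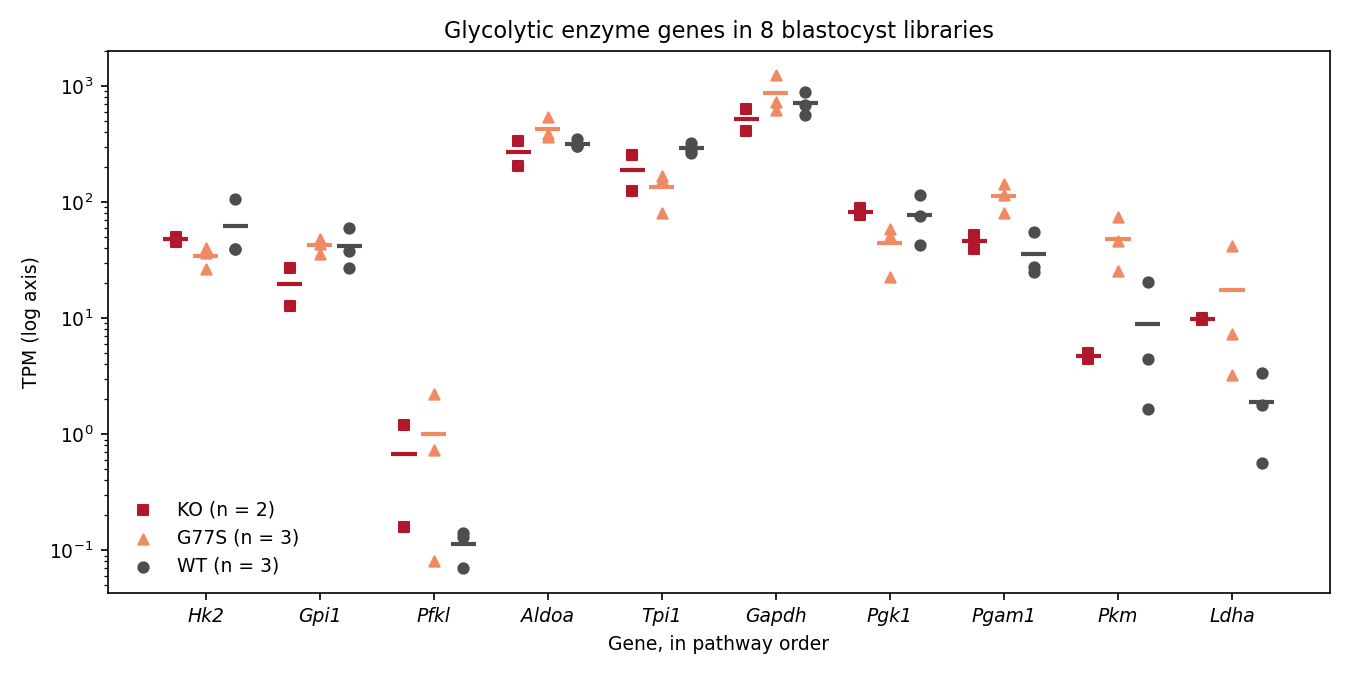
Levels of the 10 glycolytic enzyme genes in each library, in TPM on a log axis, in pathway order. Squares are KO (n = 2), triangles G77S (n = 3) and circles WT (n = 3), and bars are group means; Gapdh is highest in each group and Pfkl lowest, and the G77S libraries of Pgam1 all lie above the KO and WT libraries.

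Hk2, on chromosome 6 from 82725025 to 82774454 (minus strand; all coordinates are GRCm38), encodes the hexokinase that traps glucose as glucose 6-phosphate. It had 50.2 and 45.4 TPM in KO, 36.7, 40.2 and 26.5 TPM in G77S, and 106.2, 39.8 and 39.5 TPM in WT. On the TPM scale WT replicate 1 stood above all other libraries. Its abundance-weighted transcript length for Hk2 was 1895 bases, the shortest of the 8 (the longest was 3223 bases). On the count scale, which does not divide by length, the same library had 197 CPM (counts relative to the TMM-scaled library size), against 129 and 133 CPM in the other WT libraries, and KO replicate 2 was above it on that scale, at 200.2 CPM.

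Gpi1 (chromosome 7, 34201330 to 34230336, minus strand) encodes the isomerase that turns glucose 6-phosphate into fructose 6-phosphate. Its level was 26.9 and 12.7 TPM in KO, 48.1, 43.3 and 36.0 TPM in G77S, and 60.1, 37.9 and 27.1 TPM in WT. Both KO libraries lay below the lowest WT library, replicate 1 only just.

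Pfkl (chromosome 10, 77986947 to 78010083, minus strand) encodes the liver-type subunit of phosphofructokinase, the committing and most regulated step. It was the rarest of the 10 transcripts, with 14 and 41 counts in KO, 64, 4 and 30 counts in G77S, and 5, 7 and 14 counts in WT. That corresponds to 0.16 and 1.19 TPM in KO, 2.20, 0.08 and 0.73 TPM in G77S, and 0.07, 0.14 and 0.13 TPM in WT. The abundance-weighted length was 3730 bases in 6 libraries but 1422 bases in KO replicate 2 and 2050 bases in G77S replicate 1, which were the libraries with the most counts.

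Aldoa (chromosome 7, 126795234 to 126800751, minus strand), the aldolase that cleaves fructose 1,6-bisphosphate, was among the steadiest. It had 339.4 and 206.8 TPM in KO, 539.6, 364.7 and 386.0 TPM in G77S, and 353.3, 302.4 and 301.9 TPM in WT. On this scale every G77S library lay above every WT library, but on the count scale G77S (776, 454 and 514 CPM) overlapped WT (496, 526 and 528 CPM). A second identifier that the annotation also names Aldoa had 0 counts in all libraries.

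Tpi1 (chromosome 6, 124810586 to 124814296, minus strand) encodes triose phosphate isomerase, which interconverts the products of aldolase. Its level was 252.5 and 124.0 TPM in KO, 154.5, 80.9 and 168.0 TPM in G77S, and 264.6, 326.6 and 283.0 TPM in WT. All 5 mutant libraries lay below all 3 WT libraries on the TPM scale. On the count scale KO replicate 1 (482 CPM) fell within the WT range of 402 to 614 CPM, and the G77S libraries (240, 108 and 239 CPM) stayed below it.

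Gapdh (chromosome 6, 125161715 to 125166467, minus strand) encodes glyceraldehyde 3-phosphate dehydrogenase, the step that yields NADH. It was the most abundant of the 10, with 633.0 and 410.5 TPM in KO, 1237, 735.1 and 624.4 TPM in G77S, and 882.6, 685.5 and 564.9 TPM in WT. The groups overlapped, and G77S replicate 1 was highest.

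Pgk1 (X chromosome, 106187100 to 106203699, plus strand) encodes phosphoglycerate kinase, the first step that returns ATP. Its level was 88.2 and 76.9 TPM in KO, 22.7, 58.5 and 51.3 TPM in G77S, and 115.2, 43.0 and 76.0 TPM in WT. The highest WT library and the lowest G77S library were the pair with almost no Y-linked RNA. Without that pair the edgeR log2 difference between G77S and WT was -0.57, against -1.11 with all 8 libraries. The part of embryo sex in the level of this X-linked gene was not tested.

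Pgam1 (chromosome 19, 41911923 to 41918660, plus strand) encodes phosphoglycerate mutase, which moves the phosphate of 3-phosphoglycerate to position 2. It had 52.4 and 39.5 TPM in KO, 142.7, 114.2 and 80.1 TPM in G77S, and 55.6, 27.7 and 24.9 TPM in WT. The lowest G77S library was above the highest KO and WT libraries.

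Pkm (chromosome 9, 59656368 to 59679375, plus strand) encodes the muscle-type pyruvate kinase, the last ATP-yielding step. Its level was 4.98 and 4.43 TPM in KO, 73.8, 46.4 and 25.5 TPM in G77S, and 20.3, 1.64 and 4.49 TPM in WT. WT replicate 1 came close to the lowest G77S library, and both KO libraries fell within the WT range. The gene-level tables do not separate its M1 and M2 splice forms.

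Ldha (chromosome 7, 46841475 to 46855627, plus strand) encodes the lactate dehydrogenase subunit that favours the reduction of pyruvate to lactate. It had 10.1 and 9.57 TPM in KO, 41.6, 7.30 and 3.24 TPM in G77S, and 3.34, 1.77 and 0.57 TPM in WT. Both KO libraries lay above WT, and G77S replicate 1 stood far above the other 7 libraries.

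Ranked by mean TPM, Gapdh came first and Pfkl last in each genotype. In KO the order was Gapdh, Aldoa, Tpi1, Pgk1, Hk2, Pgam1, Gpi1, Ldha, Pkm and Pfkl, and the libraries of neighbours overlapped only for Aldoa with Tpi1 and Hk2 with Pgam1. G77S had the order Gapdh, Aldoa, Tpi1, Pgam1, Pkm, Pgk1, Gpi1, Hk2, Ldha and Pfkl, with overlap between Tpi1 and Pgam1 and between each neighbour from Pkm to Ldha. In WT the order was Gapdh, Aldoa, Tpi1, Pgk1, Hk2, Gpi1, Pgam1, Pkm, Ldha and Pfkl, with overlap between Aldoa and Tpi1, between each neighbour from Pgk1 to Pgam1, and between Pkm and Ldha. Pgam1 thus stood at place 6 in KO, place 4 in G77S and place 7 in WT, at 46.0 ± 9.1 TPM in KO (SD, n = 2), 112.3 ± 31.3 TPM in G77S and 36.1 ± 17.0 TPM in WT (SD, n = 3 each).

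In blastocysts with the G77S form, Pgam1 rose and no other member passed the test against WT. Its log2 fold change was 1.37 (SE 0.30, adjusted p = 0.0373), with 231, 171 and 128 CPM in the G77S libraries, against 94.7, 58.7 and 52.7 CPM in WT. Thus 1 of 10 members was called higher and 0 lower, where 1.3% of all genes tested were called higher and 2.09% lower (3.39% in either direction). All adjusted p-values for genes are from edgeR's quasi-likelihood test with Benjamini-Hochberg adjustment over the 13953 genes, and calls are at an adjusted p under 0.05. The members' median log2 fold change was 0.12, against 0.03 over all genes, with 7 positive and 3 negative values. Its direction turned without G77S replicate 1, to -0.18, and it reached 0.29 with another library left out.

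The other 9 members did not pass. Tpi1 came nearest, at a log2 difference of -1.40 (SE 0.34, adjusted p = 0.0514), with 240, 108 and 239 CPM in G77S and 402, 614 and 536 CPM in WT. Tpi1 was called under 9 of 18 alternative settings, against 12 for Pgam1. Among the 9 were DESeq2 (adjusted p = 0.0022), only the 2 groups compared (adjusted p = 0.0412) and the fit without WT replicate 1 (adjusted p = 0.0426). Pkm had 179, 98.1 and 57.4 CPM in G77S, against 50.1, 4.96 and 12.1 CPM in WT, and a log2 difference of 2.31 (SE 0.71, adjusted p = 0.101). Without WT replicate 1 it was 3.70 and called (adjusted p = 0.0102), and with 1 library left out it ran from 1.79 to 3.70. Pkm was called under 7 of the 18 alternative settings, DESeq2 among them (adjusted p = 0.0068). Tpi1 and Pkm were separated between the groups in every library, in opposite directions. Pgk1 had 40.6, 90.5 and 84.8 CPM in G77S and 204, 93.9 and 167 CPM in WT, giving a log2 difference of -1.11 (SE 0.35, adjusted p = 0.107). For Hk2 the value was -0.61 (SE 0.25, adjusted p = 0.202), with 119, 100 and 81.0 CPM in G77S against 197, 129 and 133 CPM in WT. Ldha had the largest estimate, 3.09 (SE 0.92, adjusted p = 0.0917), and its counts were 907, 142 and 48 in G77S, against 85, 33 and 23 in WT. Without G77S replicate 1 that estimate was 1.18, so 1 library carries most of it. Pfkl stood at 2.17 (SE 1.16, adjusted p = 0.329), Aldoa at 0.17 (SE 0.24, adjusted p = 0.755), Gapdh at 0.07 (SE 0.30, adjusted p = 0.927) and Gpi1 at 0.01 (SE 0.32, adjusted p = 0.997).

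On the count scale, 5 of 10 members had G77S and WT libraries that did not overlap. Pgam1 and Pkm lay above WT, and Hk2, Tpi1 and Pgk1 below it. Over all genes tested, 17.2% lay wholly above and 11.8% wholly below. At an unadjusted p under 0.05 the members numbered 6 of 10 (Hk2, Tpi1, Pgk1, Pgam1, Pkm and Ldha), against 20% of all genes. With Pgam1 as the single call, the steps above and below Gapdh could not be told apart. Tpi1, which came nearest to a call, lies above that step, and Gapdh, Pgk1, Pkm and Ldha were not called either. Enzymes of adjacent steps, such as Pgk1 and Pgam1, had estimates of opposite sign.

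The Pgam1 call rested on every G77S library and on 3 others. Its adjusted p was 0.147, 0.119 and 0.0511 without G77S replicates 1, 2 and 3, 0.107 and 0.109 without WT replicates 2 and 3, and 0.0509 without KO replicate 2, which enters through the shared estimate of spread. The log2 fold change stayed between 1.12 and 1.69 over all 18 alternative settings. Trophectoderm markers moved in the same libraries. Their summed level was 13179, 10126 and 11666 TPM in G77S, against 39936, 34113 and 30214 TPM in WT, 7 of 15 were called lower, and none was at 0 in any library. Of 12 tested primitive endoderm markers 2 were called higher in KO and 2 in G77S, and of 13 pluripotency markers 1 in KO and 3 in G77S, with none called lower. Their summed levels were 688.9 and 446.1 TPM in KO, 255.2 to 586.3 TPM in G77S and 377.1 to 540.6 TPM in WT for primitive endoderm. For pluripotency they were 22312 and 21272 TPM in KO, 10853 to 15751 TPM in G77S and 19246 to 27274 TPM in WT. Such a sum is weighted to the most abundant transcripts. In G77S against WT, 10 of the 13 pluripotency markers had positive log2 fold changes and 3 negative, with a median of 1.90. In KO the same split had a median of 0.85. Of the primitive endoderm markers, 11 were positive and 1 negative in KO (median 5.81), and 9 and 3 in G77S (median 1.88). Some of these markers had 0 counts in WT, which leaves their fold changes imprecise. Trophectoderm markers in KO had 12 negative and 3 positive values (median -0.79), with 0 called. Fewer cells of a type and less RNA per cell cannot be told apart in whole blastocysts, and the part of these markers in the glycolytic values was not tested.

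**Figure D2:**
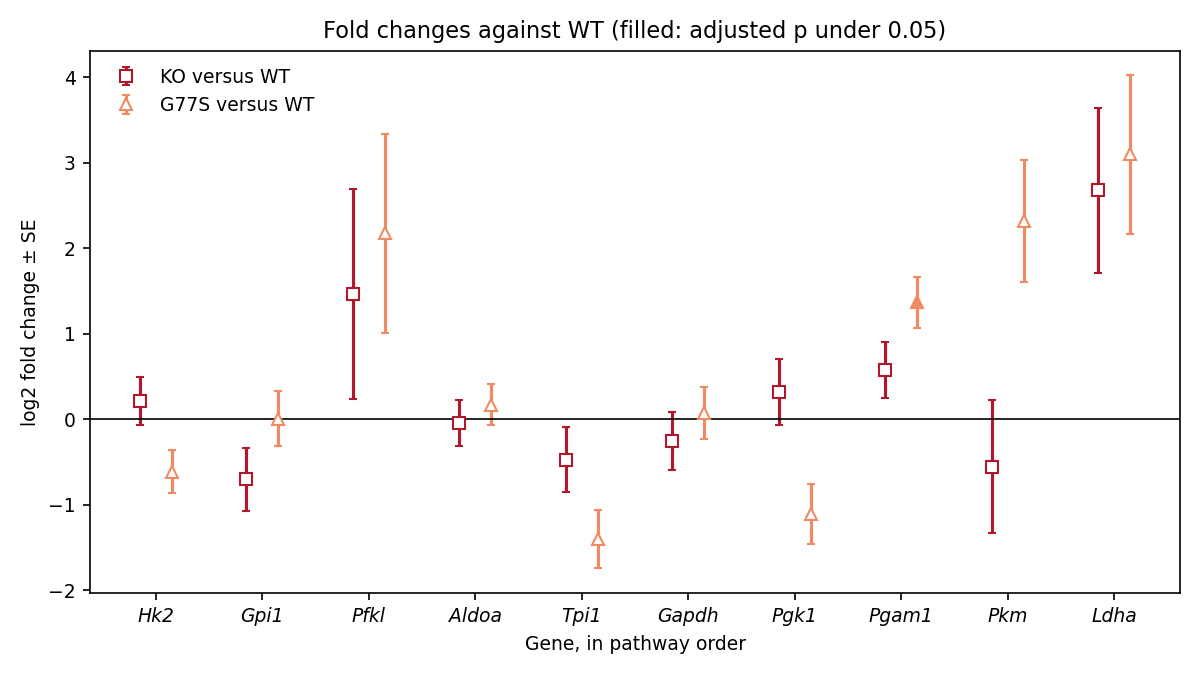
Log2 fold changes of the 10 genes against WT from edgeR, with bars of 1 SE, for KO (squares) and G77S (triangles). Only Pgam1 in G77S, at 1.37, is filled (adjusted p under 0.05); Tpi1 at -1.40 and Pkm at 2.31 in G77S lie on opposite sides of 0.

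In knockout blastocysts, no member passed the test against WT. The count was 0 of 10 in each direction with edgeR, DESeq2 and limma, where edgeR called 0.0788% of all genes higher and 0.043% lower (0.122% in either direction). At an unadjusted p under 0.05 there was 1 member, Ldha, against 13% of all genes. Ldha also had the largest estimate, a log2 difference of 2.68 (SE 0.96, adjusted p = 0.272), and 19.1 and 19.5 CPM in KO against 4.74, 3.28 and 1.07 CPM in WT. Pfkl stood at 1.47 (SE 1.23, adjusted p = 0.678), Pgam1 at 0.57 (SE 0.32, adjusted p = 0.492), Pgk1 at 0.32 (SE 0.38, adjusted p = 0.804) and Hk2 at 0.21 (SE 0.28, adjusted p = 0.822), which was -0.20 on the log2(TPM + 1) scale. The negative estimates were -0.70 for Gpi1 (SE 0.37, adjusted p = 0.451), -0.55 for Pkm (SE 0.78, adjusted p = 0.839), -0.47 for Tpi1 (SE 0.38, adjusted p = 0.656), -0.25 for Gapdh (SE 0.34, adjusted p = 0.829) and -0.05 for Aldoa (SE 0.27, adjusted p = 0.977). The median of the 10 was 0.08, against -0.06 over all genes, and it was 0.50 without WT replicate 1 and -0.033 without KO replicate 1.

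Libraries of KO and WT did not overlap on the count scale for 3 members. Pfkl and Ldha lay above WT, where 13.1% of all genes did, and Gpi1 lay below, where 12.5% did. Gpi1 had 62.8 and 32.4 CPM in KO, against 92.3, 74.2 and 66.3 CPM in WT. The standard errors ran from 0.27 for Aldoa to 1.23 for Pfkl on the log2 scale. With 2 KO libraries, changes of several SE could also go uncalled. Fbp2, a gene outside the members described below, had 1.83 (SE 0.37) in the same edgeR fit and an adjusted p of 0.0964. The absence of calls in KO therefore does not show that the members were unchanged.

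G77S blastocysts were also set against KO blastocysts, which tests the difference between the mutant groups directly. edgeR called 0 of 10 members in either direction, where 1.76% of all genes were called higher and 2.43% lower (4.19% in either direction). DESeq2 called 1 higher and 2 lower, and limma on log2(TPM + 1) called 2 higher. Pkm had the largest estimate, 2.87 (SE 0.86, adjusted p = 0.0928), with 179, 98.1 and 57.4 CPM in G77S and 15.5 and 15.1 CPM in KO. Pgk1 stood at -1.42 (SE 0.38, adjusted p = 0.065), with 40.6, 90.5 and 84.8 CPM in G77S and 197 and 189 CPM in KO. With WT replicate 1, a library of neither group, left out of the joint fit, both were called (adjusted p = 0.017 for Pkm and 0.0458 for Pgk1). For Tpi1 the log2 fold change was -0.93 (SE 0.37, adjusted p = 0.186), for Hk2 -0.83 (SE 0.28, adjusted p = 0.126), and for Pgam1 0.79 (SE 0.34, adjusted p = 0.214). Those 5 were the members at an unadjusted p under 0.05, against 20.7% of all genes. They were also the 5 whose libraries did not overlap on the count scale, Pkm and Pgam1 above KO (24.9% of all genes) and Pgk1, Tpi1 and Hk2 below (20% of all genes). The remaining estimates ran from 0.22 for Aldoa to 0.71 for Gpi1, and the Pgam1 difference between G77S and KO was thus not shown. The comparisons against WT share the WT libraries, and these share the G77S and KO libraries with them.

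The upstream sequences of the 10 genes were read for a pair of motifs known to bear on glycolytic genes. ACGTG is a core that hypoxia-inducible factors bind, and CACGTG is the palindrome bound by MYC and related factors, which contains ACGTG on both strands. RefSeq (GRCm38.p6) gave 14 start sites for the 10 genes, and the 250 bases before each were searched on both strands. Some RefSeq start sites lie inside the GENCODE gene positions given above. The Ldha window below thus falls within the GENCODE gene, and that of Tpi1 falls partly within it. ACGTG occurred before 7 of the 14, in 6 of 10 genes, and before 16.6% of 32851 promoters of all genes. A pair of those 7 are overlapping Aldoa windows that hold the same site. CACGTG occurred for 1 member, Ldha, and before 6.02% of all promoters. The shares over all promoters count start sites and not genes, and that background was not matched for base content. The 14 windows of the members had 50.4% to 69.6% G and C. Whether the members hold more sites than promoters of like base content was not tested. The sequences below include the member called in G77S (Pgam1) and the member with the palindrome (Ldha). The others are 2 of the members whose G77S libraries lay below WT on the count scale (Tpi1 and Pgk1). All these sequences run 5′ to 3′ on the strand of the gene, with ACGTG, or CACGT where it lies on the other strand, in capitals.
Pgam1, chr19:41911621-41911870, plus strand: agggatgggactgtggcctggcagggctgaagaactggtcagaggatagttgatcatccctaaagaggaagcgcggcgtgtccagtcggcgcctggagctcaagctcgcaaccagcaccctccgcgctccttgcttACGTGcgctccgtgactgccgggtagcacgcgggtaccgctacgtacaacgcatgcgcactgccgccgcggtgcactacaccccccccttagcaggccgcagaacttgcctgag
Tpi1, chr6:124814159-124814408, minus strand: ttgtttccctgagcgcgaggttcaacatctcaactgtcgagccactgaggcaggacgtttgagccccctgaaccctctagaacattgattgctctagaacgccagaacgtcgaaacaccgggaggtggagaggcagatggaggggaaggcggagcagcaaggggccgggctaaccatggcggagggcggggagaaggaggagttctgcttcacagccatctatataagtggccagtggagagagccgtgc
Pgk1, chrX:106186850-106187099, plus strand: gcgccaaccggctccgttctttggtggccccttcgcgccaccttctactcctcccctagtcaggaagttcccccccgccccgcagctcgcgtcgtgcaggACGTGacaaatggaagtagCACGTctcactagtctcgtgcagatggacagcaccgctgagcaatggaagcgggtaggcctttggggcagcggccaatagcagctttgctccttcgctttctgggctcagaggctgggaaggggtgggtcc
Ldha, chr7:46845554-46845803, plus strand: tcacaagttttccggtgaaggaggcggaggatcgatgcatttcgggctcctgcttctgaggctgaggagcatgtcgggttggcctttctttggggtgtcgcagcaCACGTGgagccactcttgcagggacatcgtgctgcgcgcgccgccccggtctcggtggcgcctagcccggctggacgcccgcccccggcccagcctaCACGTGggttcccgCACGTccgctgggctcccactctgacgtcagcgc
Pgam1 held 1 match, with its first base 114 bases before the start site. Pgk1 held 2, Tpi1 none, and Ldha 5, of which 4 are both strands of its 2 palindromes. A second Ldha start site held none. Hk2 held 2 matches, Aldoa 1 in 2 of its 3 promoters and Pkm 1 in 1 of 2, and Gapdh, Gpi1 and Pfkl held none in this window. A match describes the sequence and not binding.

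Several steps have isozymes from other genes, so the share of each member in the TPM of its enzyme family was computed per library. Aldoa, Gapdh, Pgk1 and Pkm made up at least 99.7% of their families in every library, and these 4 families were not tested. Hk2 made up 96.95% and 98.9% of hexokinase TPM in KO, 95.9%, 95.8% and 99.3% in G77S, and 98.7%, 99.2% and 100% in WT. Pgam1 held 88.2% and 83.6% of phosphoglycerate mutase TPM in KO, 77.5%, 91.3% and 84.4% in G77S, and 96.5%, 90.5% and 91.0% in WT, the rest being the muscle isozyme Pgam2. Both KO shares lay below the WT shares (exact permutation test, 2-sided p = 0.2, the smallest that 2 against 3 libraries allow, adjusted p = 0.6 over 12 tests). Pfkl varied most, at 25.8% and 67.2% of phosphofructokinase TPM in KO, 89.8%, 6.96% and 68.9% in G77S, and 15.9%, 4.19% and 4.08% in WT. Both other phosphofructokinase genes were also rare: Pfkm was at 0 in KO, 0.25 to 1.07 TPM in G77S and 0.37 to 1.63 TPM in WT, and Pfkp was at 0.46 and 0.58 TPM in KO, 0 in G77S, and 0, 2.31 and 1.43 TPM in WT. Ldha held 86.0% and 61.5% of lactate dehydrogenase TPM in KO, 92.6%, 83.5% and 100% in G77S, and 88.4%, 78.7% and 34.1% in WT. None of the 12 differences in share passed an adjusted p of 0.05, which groups of 2 or 3 could not reach.

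**Figure D3:**
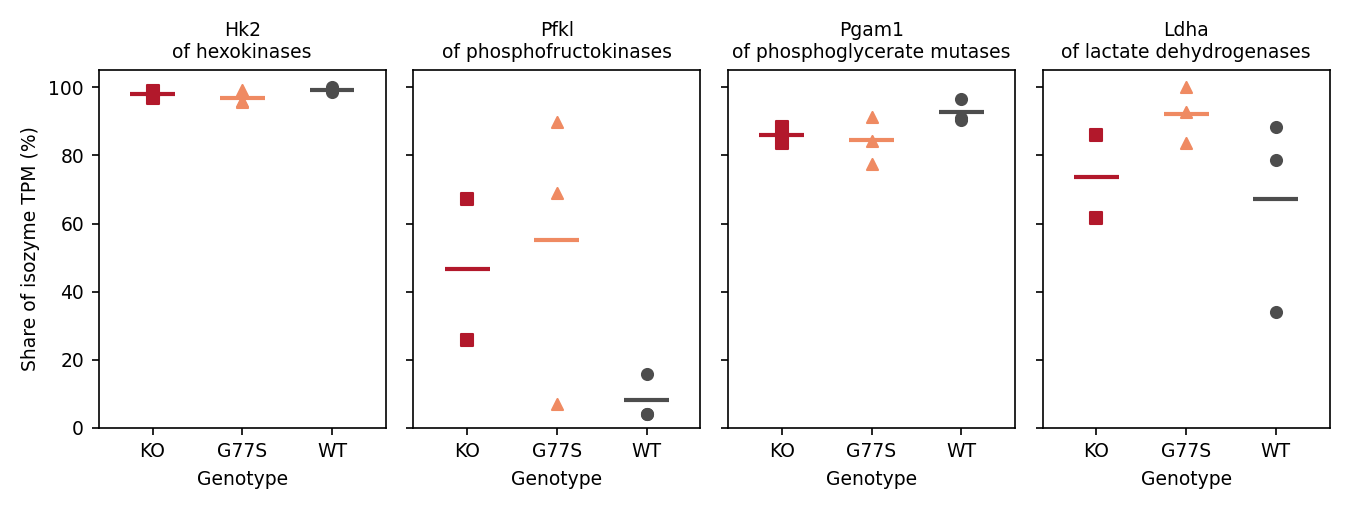
Share of Hk2, Pfkl, Pgam1 and Ldha in the TPM of their isozyme families, in percent, per library, for KO (n = 2), G77S (n = 3) and WT (n = 3), with bars at group means. Hk2 lies at 95.8% or above in all libraries, and Pfkl runs from 6.96% to 89.8% within G77S.

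Glycolytic genes have left many processed pseudogenes, and reads from near-identical copies are divided between them by the counting. Sequence matching assigned 280 pseudogenes to the 10 genes, of which 92 had at least 1 count, and 207 belonged to Gapdh. Counts on Gapdh pseudogenes came to 2.42% to 3.05% of those on Gapdh in 7 libraries but 14.9% in KO replicate 2. For Pgam1 the share was at most 0.492% and for Pgk1 at most 1.11%, and for Hk2 and Pfkl no pseudogene was matched. Ldha reached 12.5% in G77S replicate 3, where 6 counts lay on its pseudogenes. With pseudogene counts added to their parent genes, the Pgam1 log2 fold change in G77S against WT was again 1.37 (adjusted p = 0.0373). Spsb2 overlaps Tpi1 on the opposite strand and had at most 4.14% of its counts, and strandedness is not given in the sources used here.

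Among the lists of genes around the pathway, 6 genes passed the test in G77S against WT and 0 in KO. Over all genes tested, 3.39% were called in G77S and 0.122% in KO, so fewer calls in KO are not particular to these lists. The number of genes tested in each list is given with it below. In KO, Fbp1 was called under 4 and Fbp2 under 3 of 18 alternative settings. The 6 genes called in G77S were Fbp1 and Fbp2, Mdh1 and Gpd2, Pgam2 and Gyg. Fbp2, a fructose 1,6-bisphosphatase that runs the phosphofructokinase step backwards in gluconeogenesis, had 250.7 and 527.3 TPM in KO, 793.7, 807.7 and 567.1 TPM in G77S, and 194.6, 79.6 and 120.9 TPM in WT. It rose in G77S by 2.23 on the log2 scale (SE 0.35, adjusted p = 0.0090), and its value in KO was 1.83 (SE 0.37, adjusted p = 0.0964). Fbp1, the liver form of that enzyme, had 238 counts over the KO libraries, 173 over the G77S libraries and 0 over the WT libraries. By pooled counts its level was at least 70.6-fold higher in G77S (adjusted p = 0.0144). In KO the bound was at least 110-fold, and the gene was not called there (adjusted p = 0.0539). Both bounds are against a limit of 3 counts over the WT group. They cover counting error only and not the spread among libraries. Of 4 gluconeogenic genes tested, 0 were called in KO, and 2 were called higher and 0 lower in G77S. DESeq2 called both in KO (adjusted p = 2.6e-06 for Fbp1 and 0.00051 for Fbp2), as did edgeR with no filter. The Fbp2 value in KO was 2.32 and called without KO replicate 1 (adjusted p = 0.0351) and 1.09 without KO replicate 2. The difference between G77S and KO was not called for any of the 4. G6pc3, a glucose 6-phosphatase and the next most abundant of that list, had 3.60 and 7.32 TPM in KO, 16.9, 6.30 and 9.09 TPM in G77S, and 6.02, 12.9 and 6.20 TPM in WT.

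NADH from the Gapdh step can reach mitochondria through shuttles, and 12 genes of these shuttles and of the serine branch were tested. Mdh1, the cytosolic malate dehydrogenase, had 510.1 and 502.2 TPM in KO, 199.3, 193.8 and 230.1 TPM in G77S, and 452.9, 556.3 and 444.5 TPM in WT. It fell in G77S by 1.67 on the log2 scale (SE 0.21, adjusted p = 0.0034), and its value in KO was 0.24 (adjusted p = 0.722). Gpd2, the mitochondrial glycerol 3-phosphate dehydrogenase, had 4.97 and 4.89 TPM in KO, 30.4, 36.4 and 22.8 TPM in G77S, and 7.85, 4.72 and 12.2 TPM in WT. It rose in G77S (log2 fold change 1.37, SE 0.27, adjusted p = 0.0252), and its value in KO was 0.02 (adjusted p = 0.996). The list gave 1 call higher and 1 lower in G77S and 0 in KO. The mitochondrial partner Mdh2 was abundant, with 1058 and 860.4 TPM in KO, 1085, 1201 and 1069 TPM in G77S, and 916.8, 903.9 and 860.8 TPM in WT.

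Pgam2, the muscle isozyme of phosphoglycerate mutase, had 7.01 and 7.73 TPM in KO, 41.5, 10.9 and 14.9 TPM in G77S, and 1.99, 2.91 and 2.45 TPM in WT. It rose in G77S by 3.02 on the log2 scale (SE 0.65, adjusted p = 0.0342), with a value of 1.75 in KO (SE 0.67, adjusted p = 0.305). It was the single call among 9 tested isozymes of the 16 listed. The transcripts of Pgam2 and Pgam1 were 75.4% identical over 773 aligned bases. Eno1, the enolase between Pgam1 and Pkm, had 81.4 and 80.2 TPM in KO, 267.5, 171.9 and 131.7 TPM in G77S, and 132.1, 100.2 and 83.5 TPM in WT, and 0 of 4 enolase genes were called in either comparison with WT. Eno3, the muscle enolase, had 1.62 to 5.24 TPM in all libraries, and Bpgm, which makes 2,3-bisphosphoglycerate, had 0.91 to 5.00 TPM. Gyg, the glycogenin that primes glycogen, had 16.04 and 5.88 TPM in KO, 5.15, 8.06 and 10.99 TPM in G77S, and 33.4, 16.8 and 27.0 TPM in WT. It fell in G77S by 1.95 on the log2 scale (SE 0.43, adjusted p = 0.0378), with -1.05 in KO (SE 0.48, adjusted p = 0.387), as the only call among 10 glycogen genes. The abundant members of that list were Ugp2, which makes UDP-glucose, at 279.4 and 111.7 TPM in KO, 79.9, 160.6 and 156.0 TPM in G77S, and 236.6, 249.98 and 244.2 TPM in WT, and Pgm1, at 18.3 to 51.5 TPM in all libraries. Over 18 alternative settings Fbp2 and Mdh1 were called under all, Fbp1 under 15, Gpd2 under 13, Gyg under 11 and Pgam2 under 10. The Fbp1 call was lost without G77S replicate 1 or 2 (adjusted p 0.058 and 0.065). That of Gpd2 was lost without G77S replicate 1 or 2 or WT replicate 2 or 3 (0.051 to 0.121), and those of Gyg and Pgam2 without any single G77S or WT library (0.055 to 0.152 and 0.054 to 0.183).

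**Figure D4:**
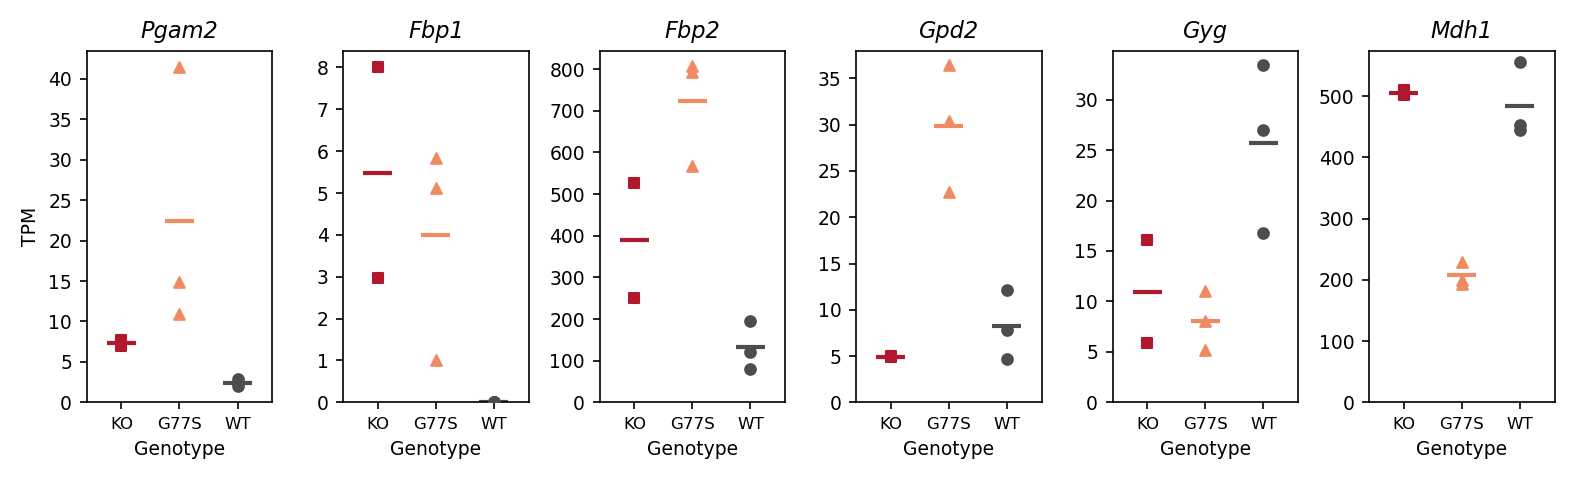
Levels in TPM of the 6 genes around glycolysis that passed the test in G77S against WT, per library, with bars at group means and a linear axis from 0 in each panel. Mdh1 and Gyg are lower in G77S than in WT, and Pgam2, Fbp1, Fbp2 and Gpd2 are higher, with Fbp1 at 0 in all 3 WT libraries.

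No gene passed in either mutant group against WT among 6 tested glucose transporters, 6 lactate and pyruvate transporters, 4 regulators of fructose 2,6-bisphosphate, 11 genes of pyruvate dehydrogenase, 7 of the pentose phosphate pathway, and 15 hypoxia-responsive genes and regulators. The most abundant glucose transporter, Slc2a3, had 49.8 and 32.9 TPM in KO, 33.3, 45.9 and 30.4 TPM in G77S, and 80.4, 37.9 and 39.9 TPM in WT. Slc2a1 lay between 1.65 and 7.49 TPM in all libraries. Mpc1, a subunit of the mitochondrial pyruvate carrier, had 543.3 and 601.9 TPM in KO, 484.7, 619.5 and 496.5 TPM in G77S, and 436.9, 434.8 and 454.8 TPM in WT. Bnip3, a mitophagy receptor induced by hypoxia, had 537.7 and 576.5 TPM in KO, 499.5, 558.8 and 681.3 TPM in G77S, and 458.8, 1250 and 1442 TPM in WT, so the WT libraries disagreed among themselves. Vhl, which marks hypoxia-inducible factors for degradation, had 11.2 and 21.0 TPM in KO, 59.98, 72.5 and 52.4 TPM in G77S, and 31.4, 35.2 and 59.7 TPM in WT. Pdhb and Pdha1 of pyruvate dehydrogenase, Taldo1 and Pgls of the pentose phosphate pathway, Tigar and Pfkfb1, and Bsg, which chaperones lactate transporters, were also among the abundant members of these lists.

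The 10 genes lay at unequal distances from their mean profile, of which each gene is itself a part. Other sets of genes were not compared, so whether the 10 genes varied together was not tested. Their mean profile, as log2(TPM + 1) centred on each gene's mean over the 8 libraries, was highest in G77S replicate 1 (0.77) and lowest in WT replicate 3 (-0.49). Aldoa and Gapdh stayed nearest to it, each with a root-mean-square difference of 0.24, and Pkm was farthest, at 1.27. Among 4659 genes with a mean of at least 10 TPM, the 5 nearest to this profile were Mrfap1 (0.13), Zpr1 (0.15), Rps4x (0.15), Borcs7 (0.15) and Rps12 (0.17). These are descriptions over 8 libraries that share depth and preparation with the members.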

How the data were processed

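The authors deposited 1 gene table per library, and per the file headers it holds each expected count made by RSEM, in which a read that maps to several genes is divided between them. It also holds TPM, which the authors scaled within each library, and an abundance-weighted length. The tools listed by the submitters' processing notes are STAR 2.6.1c and RSEM 1.3.1, beside Trim Galore 0.4.5 and DESeq2 1.42.1, with the build mm10 (GRCm38). The annotation release is not given in the sources used here. Symbols and 1-based positions were taken from GENCODE for GRCm38, where 55230 of 55471 identifiers had an entry (99.6%), and upstream sequences from RefSeq.

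Each expected count, as deposited, was rounded and tested with edgeR 4.0.16 in R 4.3.3. Genes passed filterByExpr by group, scaling was by TMM, a single fit of all 8 libraries estimated each genotype's mean, and the quasi-likelihood F test gave p. The SE is the absolute log2 fold change over the square root of F. Libraries had 10323965 to 23842619 counts, so 3 counts equal 0.139 to 0.298 CPM. The reads carry no molecular identifiers, so limits on 0 counts cover counting error only. Pseudogenes were matched with BLAST+ 2.17.0 (identity at least 80%, coverage at least 50%). Alternatives were scaling by RLE, no filter, at least 5 CPM in 2 libraries, a fit of each pair of groups alone, a block for the replicate number, DESeq2 1.42.0, limma 3.58.1 on log2(TPM + 1) and on log2(TPM + 0.1), added pseudogene counts, and each library left out. A further one, chosen after seeing the data, kept the 6 libraries in which Y-linked RNA was present. The steps were tested on simulated data.

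The members and gene lists were chosen with earlier results of these data known. The text names the 10 members, Isca2, up to 4 called and the 2 most abundant genes of each list around the pathway, and the 5 genes nearest to the members' profile. Marker lists are given by count, and the marker genes, pseudogenes, Spsb2, Pfkm and Pfkp named beside them were chosen after their values were seen.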

Additional observations from a re-analysis of the deposited data

How the results depend on the processing

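Numbers of calls depended on the method more than the estimates did. In KO versus WT, 11 genes were called higher and 6 lower. The counts were 285 and 262 with no filter, 34 and 26 with the stricter filter, 304 and 342 with DESeq2, 57 and 38 with limma on log2(TPM + 1), 48 and 38 on log2(TPM + 0.1), and 21 and 11 in the 6 Y-positive libraries (those that hold Y-linked RNA). With only the 2 groups compared 3 were lower, and with the replicate block 4 were higher. In G77S versus WT, 182 were higher and 291 lower, against 598 and 738 with no filter and 714 and 824 with DESeq2. The counts higher were 325 with the stricter filter, 326 with 2 groups, and 101 in the 6 libraries. The fits of limma on TPM, which change the test and the scaling together, gave 1178 higher and 288 lower with a pseudocount of 1 and 1030 and 277 with 0.1. In G77S versus KO, 246 were higher and 339 lower, against 619 and 792 with no filter, 489 and 520 with 2 groups and 852 and 847 with DESeq2. The counts higher were 391 with the stricter filter, 1543 and 1469 on the TPM scales (306 and 275 lower), and 153 in the 6 libraries. On log2(TPM + 1) the median of all genes was -0.12, 0.23 and 0.34 in KO versus WT, G77S versus WT and G77S versus KO, and on log2(TPM + 0.1) it was -0.18, 0.41 and 0.59. It was 0.12 and 0.19 in the G77S comparisons with no filter and 0.13 and 0.14 with the block. Leaving out 1 library gave 0 to 29 higher and 0 to 15 lower in KO versus WT, 31 to 263 and 51 to 375 in G77S versus WT, and 57 to 420 and 91 to 529 in G77S versus KO. Leaving out a KO library leaves 1, which is then assumed to vary like the other groups.

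Among the 10 members, KO versus WT gained 1 call higher with no filter (Ldha) and none otherwise. G77S versus WT (main counts 1 higher, 0 lower) gave 3 and 2 with no filter and with DESeq2, 2 and 1 with the block and on both TPM scales, 1 lower with the stricter filter and with only 2 groups, and 2 higher in the 6 libraries. G77S versus KO (main counts 0 and 0) gave 1 and 2 with no filter and with DESeq2, 1 and 1 with 2 groups, 1 lower with the stricter filter, 1 higher with the block, on log2(TPM + 0.1) and in the 6 libraries, and 2 higher on log2(TPM + 1). With 1 library left out the counts were 0 to 2 higher and 0 to 1 lower in G77S versus WT, 0 to 1 in each direction in G77S versus KO, and 0 in KO versus WT. In G77S versus WT, Pgam1 was called under 12 of 18 alternatives (adjusted p 0.00021 to 0.147), Tpi1 under 9, Pkm under 7, and Pgk1 and Ldha under 2 each. In G77S versus KO, Pkm was called under 8 and Pgk1 under 5.

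These directions turned, all among values without a call. In KO versus WT, Hk2 was -0.20 and -0.21 on the TPM scales with pseudocounts 1 and 0.1, and Gpd2 was -0.56 and -0.63 there. Pkm was 0.87 in the 6 libraries. With 1 library left out, Pkm ran from -1.02 (without WT replicate 2) to 0.83 (without WT replicate 1), and Gpd2 from -0.13 (without WT replicate 2) to 0.15, with -0.084 without KO replicate 1. Aldoa ran from -0.35 to 0.21 and Gapdh from -0.63 to 0.054, each highest without KO replicate 2. In G77S versus WT, Gpi1 was -0.0012 with RLE scaling, -0.0088 with no filter, -0.027 with the block, -0.0012 with DESeq2 and -0.11 in the 6 libraries. It ran from -0.26 (without G77S replicate 1) to 0.20, with -0.027 and -0.092 without WT replicates 2 and 3. Gapdh was -0.012 with the block and -0.26 in the 6 libraries, and ran from -0.36 (without G77S replicate 1) to 0.30, with -0.010 without WT replicate 3. Aldoa was -0.12 in the 6 libraries and ran from -0.098 (without G77S replicate 1) to 0.34. In G77S versus KO, the 6 libraries gave -0.077 for Aldoa, -0.093 for Pfkl, -0.13 for Gapdh and -1.51 for Ldha. The values with 1 library left out ran from -0.079 to 0.52 for Aldoa, -0.092 to 1.56 for Pfkl, -0.14 to 0.71 for Gapdh and -1.51 to 0.92 for Ldha, each lowest without G77S replicate 1, and Aldoa was -0.038 without KO replicate 2. The difference in isozyme share, in percentage points, ran in KO versus WT from -9.73 (without WT replicate 3) to 19.0 for Ldha, with -5.51 without KO replicate 1. In G77S versus KO it ran from -2.08 to 0.047 for Hk2 (highest without KO replicate 2), -12.0 to 32.8 for Pfkl (-12.0 and -8.61 without KO replicate 1 and G77S replicate 1) and -5.01 to 1.91 for Pgam1 (0.729 and 1.91 without those). The log2 ratio of the members' summed level, G77S versus KO, was 0.53 in TPM and 0.058 in CPM. The members' median ran from -0.033 to 0.50 in KO versus WT, from -0.18 to 0.29 in G77S versus WT and from -0.11 to 0.61 in G77S versus KO with 1 library left out, lowest without KO replicate 1 in the first and without G77S replicate 1 in the others. In KO versus WT it was also -0.046 with the stricter filter and -0.23 and -0.20 on the TPM scales, and in G77S versus WT and G77S versus KO it was -0.12 and -0.11 in the 6 libraries. The cause of these shifts was not tested.

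The labels do not say whether a shared replicate number pairs libraries. Deviations from the group means correlated at -0.02 to 0.07 between samples that share a number. Deviations within groups this small cannot settle whether libraries were paired, and the block values above are not read as a paired result. Pfkl had 4 to 64 counts, which limits its precision, and the stricter filter did not keep it.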

Other observations

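A Gapdh pseudogene, Gm13394 (chromosome 2, 28933610 to 28934609, 99.9% identical to the Gapdh transcript), was noticed after its values were seen. It had 3.45 expected counts in KO replicate 1 and 1064 in KO replicate 2. The G77S libraries had 9.72, 8.15 and 9.37 counts, and the WT libraries had 7.64, 3.47 and 13.2. Another copy, Gm7336 (chromosome 7, 51746647 to 51747878, 99.8% identical), had 351 and 306 counts in KO, 188, 115 and 70.8 in G77S, and 322, 160 and 306 in WT, so it showed no such step. Gapdh itself was lowest in KO replicate 2, at 410.5 TPM. Aldoa, Gpi1 and the summed level of the 10 genes (931 TPM) were also lowest there, and the remaining members were lowest in other libraries. Whether reads moved between the parent gene and this copy was not tested.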
